A study of Danio rerio with 18 samples.

Results

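The 6 arrays titled as untreated controls of a zebrafish (Danio rerio) study hold RNA that the titles label as lateral line primordium. They were chosen by title alone, 6 of the 18 arrays in the series. The other arrays came from embryos given the FGF receptor inhibitor SU5402 or overexpressing Fgf3, and they were not used. Control embryos were younger than 3 days and bore a pair of fluorescent transgenes, cldnb:lynGFP for cell membranes and cxcr4b:nls-tdTomato for nuclei. Although titled untreated, they received 10 µM RU486, a steroid receptor ligand, and 0.1% DMSO, as did both other groups. Total RNA was purified with a column kit. The sources used here give neither the way the cells were isolated nor whether embryos were pooled. The arrays are labelled as biological replicates, with nothing to say whether each came from a separate clutch, so the spread between them may be partly technical.

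In the zebrafish embryo a group of epithelial cells, the posterior lateral line primordium, travels down each flank and deposits the sensory organs of the lateral line, the neuromasts. Its path is laid by the chemokine Cxcl12a, which the cells sense through Cxcr4b and clear at the rear through Ackr3b. Wnt signalling marks the leading domain, FGF signalling organises rosettes behind it, and Notch signalling restricts the atoh1a-expressing hair cell progenitors at the centre of each rosette.

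Each value is a log2 signal of a probe set, a group of probes for a transcript, so a step of 1 means a doubling of signal. For each of 19260 genes with a symbol, the probe set with the highest control mean was used, and genes were ranked by that mean. Probe sets bind their targets with different strength, so the ranks order signals and not RNA amounts. Among the 1365 genes with several probe sets, the median range between a gene's probe sets was 0.752 log2 units, and for 265 of them the probe sets fell on both sides of the bound given next. The bound between near-background and higher signals was the 95th percentile of 216 chemosensory receptor genes, a family known from the nose and other chemical sense organs, and it lay at 5.36. These receptor genes had a median of 3.67, and 11 of them lay above the bound, up to 7.17, a count that the choice of percentile fixes. Of the named genes 15416 (80.0%) lay above the bound, and the 3844 at or below it are called near background. The 10.0% of genes with the highest means, 1927 in number, began at 9.06 and are called high below. Counts of list members are to be read beside these shares, 80.0% above the bound and 10.0% high. On all 6 arrays 14265 genes lay above the bound and on all 6 2862 lay at or below it, while 2133 were mixed. Because 3432 genes had a median over the arrays within 0.5 of the bound, a label near it is a matter of the bound chosen.

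**Figure D1:**
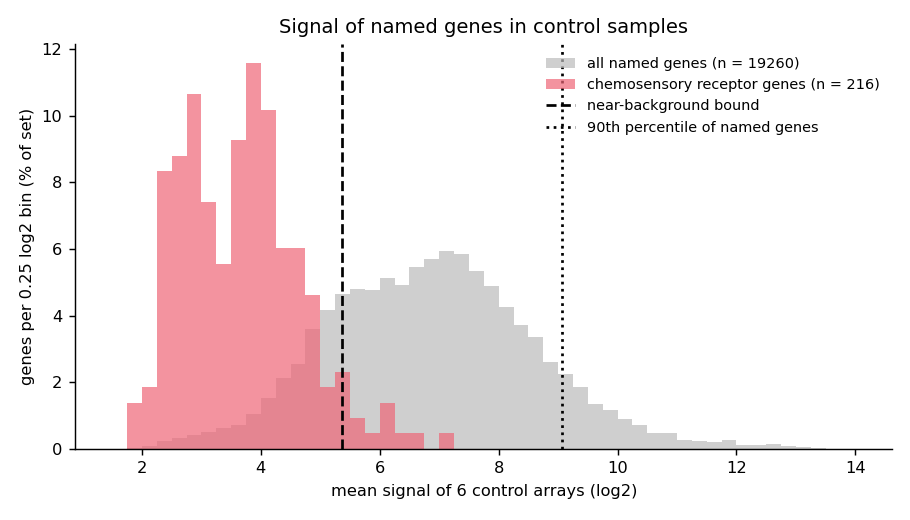
Share of genes (vertical axis, percent of each set) by mean signal over the 6 control arrays (horizontal axis, log2), for all 19260 named genes in grey and the 216 chemosensory receptor genes in red, with the near-background bound at 5.36 (dashed) and the 90th percentile of named genes at 9.06 (dotted). By the definition of the bound the receptor genes sit mostly below the dashed line, while the named genes are spread on both sides of it with a median of 6.85.

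The 6 arrays had closely similar medians over the 75212 probe sets and correlations of 0.967 to 0.983 across probe sets. Replicates 1 and 5 were the pair with the lowest correlation and lay at the ends of the first principal component, which held 33.1% of the variance, with scores of 78.0 and -67.1. Replicate 1 gave the highest value for 24.5% of named genes and replicate 5 for 21.4%. They gave the lowest value for 22.5% and 22.0%.

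The label of the samples was set beside 29 measured genes that the lateral line primordium is known to use or express, chosen with earlier results of these data known. All 29 lay above the bound, against 80.0% of named genes, and 16 were high, against 10.0%. Their median was 9.29, against 6.85 for named genes. The same measures do not set the primordium apart from its neighbours, since skin markers had the same median and 55.6% of them were high, against 55.2% of the primordium genes. Skeletal muscle markers exceeded both, with a median of 11.07 and 24 of 30 high. Cell adhesion genes led the primordium list, with cldnb, the claudin whose promoter drives the membrane marker, at a lowest value of 11.70, a median of 11.89 and a highest of 12.11, a mean of 11.90 ± 0.13 (SD, n = 6). The surface glycoprotein gene epcam averaged 11.88 ± 0.074 and eya1, a transcriptional coactivator, 11.81 ± 0.21 (SD, n = 6 each). The order of cldnb and epcam held on 4 of 6 arrays and that of epcam and eya1 on 3, so these neighbours did not differ beyond their spread, whereas eya1 was above ackr3b on all 6. The placode and otic genes hmx3a, sox2 and hmx2 averaged 10.55 ± 0.30, 10.27 ± 0.30 and 10.01 ± 0.28 (SD, n = 6 each). The lowest members were dlx4b at 6.77 ± 0.17, tbx3a at 6.78 ± 0.15 and mcamb at 6.89 ± 0.44 (SD, n = 6 each), in an order that differed between arrays. Many of these genes are not private to the primordium: epcam, cdh1 and cldnb are also used by skin, and 24 of the 29 stand in at least 1 other list of this description.

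Markers of other cell types also gave signal, and their lists stand beside every level below. In whole samples, fewer cells of a type and less RNA per cell cannot be told apart. Of 30 skeletal muscle markers 29 lay above the bound and 24 were high, with a median of 11.07, and actc1b, a muscle actin gene, ran from 12.92 to 13.18 with a median of 13.15 and ranked 7th of all named genes. Of 27 skin and periderm markers 26 were above the bound and 15 high, with a median of 9.29. The globin hbae1.1 ran from 11.08 to 12.86 with a mean of 12.13, the kidney cadherin cdh17 from 11.07 to 11.80 with a median of 11.39, and the neutrophil gene lyz from 8.94 to 10.76 with a median of 10.54, replicate 2 alone being under 10.39. These genes were the highest of their lists. The list medians were 6.06 for erythroid, 7.23 for pronephros and 5.955 for leukocyte markers, against 6.85 for named genes. Of 19 leukocyte markers 13 lay above the bound (68.4%) and of 11 erythroid markers 9 (81.8%), against 80.0% of named genes. Some members were near background: the leukocyte genes mpeg1.1 and ptprc averaged 4.86 and 4.60, and the erythroid factor gata1a 4.68. The heart myosin myl7 averaged 4.19. How far these cells contribute to the genes below was not tested.

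Among the chemokine guidance genes, the duplicates of both main receptors lay far apart. Of 12 measured genes 10 were above the bound, a share of 83.3% that is near the 80.0% of all named genes, and 2 were high, and those 2 were the receptors that the primordium is known to use. The scavenger receptor ackr3b ran from 11 to 11.74 with a median of 11.46 and averaged 11.42 ± 0.25, while its duplicate ackr3a averaged 6.86 ± 0.16 (SD, n = 6 each). The signalling receptor cxcr4b ran from 10.14 to 10.91 with a median of 10.71, its lowest value on replicate 5 and the other arrays at 10.67 or above. It averaged 10.65 ± 0.27, against 6.68 ± 0.26 for cxcr4a (SD, n = 6 each). Within arrays the difference was 3.76 to 4.21 for cxcr4b over cxcr4a and 4.35 to 4.73 for ackr3b over ackr3a, so the order held on all 6.

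The ligands of these receptors were in the middle range and varied far more between arrays. Their range over the 6 arrays was 6.60 to 8.89 for cxcl12b, with a median of 7.67, and 6.65 to 8.30 for cxcl12a, with a median of 7.45. Both were lowest on replicate 1 and highest on replicate 6. Those arrays also had the lowest and the highest mean of the mesenchyme, muscle, Hox, neuron and integrin lists, among others, and of all named genes. Which cells the ligand signal came from was not tested. cxcl12b averaged 7.72 ± 0.78 and cxcl12a 7.49 ± 0.60 (SD, n = 6 each), and cxcl12b was higher on 5 of 6 arrays. The orphan ligand cxcl14 averaged 7.08 ± 0.27. The leukocyte chemokine receptors were lower: cxcr3.2 averaged 5.96 ± 0.22, ccr9a 5.82 ± 0.27 and cxcr5 5.74 ± 0.24, while cxcr3.1 at 5.16 ± 0.15 and ccr7, with a median of 4.16, lay at or below the bound on all 6 arrays (SD, n = 6 each).

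FGF ligands bind FGF receptors with heparan sulfate and start the MAP kinase cascade, whose transcriptional targets and inhibitors form a feedback loop. Of 23 FGF ligand genes 14 were above the bound, 60.9% against 80.0% of named genes, and 1 was high. Their median was 5.63, below that of named genes. The high ligand was fgf10a, a ligand the primordium is known to express, with a lowest value of 8.80 on replicate 5, a median of 9.26 and a highest of 9.48. Its mean of 9.23 ± 0.23 stood 1.65 above the next ligand, an order that held on all 6 arrays. fgf23, a hormone of phosphate balance, averaged 7.58 ± 0.46, followed by fgf3, the other ligand known from the primordium, at 7.12 ± 0.46 and by fgf6a, known as a muscle ligand, at 7.07 ± 0.25 (SD, n = 6 each). fgf3 ran from 6.30 on replicate 5 to 7.60 on replicate 2 with a median of 7.21, and its order relative to fgf23 and fgf6a changed between arrays. A group of 7 ligands from fgf24 at 6.72 to fgf18b at 5.92 followed with no gap wider than their spread. The remaining ligands ran from fgf7 at 5.63 to fgf22 at 4.22. fgf8a averaged 5.45 ± 0.35 and lay above the bound on 4 of 6 arrays, and fgf8b averaged 4.99 ± 0.23 (SD, n = 6 each). fgf5, fgf6b, fgf17, fgf19 and fgf22 lay at or below the bound on every array.

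The FGF duplicates differed in how firmly they were ordered. fgf10a was above fgf10b by 2.57 to 3.46 and fgf6a above fgf6b by 2.19 to 2.94 on all 6 arrays. fgf1a and fgf1b, averaging 6.57 and 6.10, kept their order on 4 of 6, and fgf18a and fgf18b, at 6.19 and 5.92, likewise on 4. fgf8a was above fgf8b on 5 of 6 arrays, with a difference that ran from -0.48 to 1.11, and fgf20a and fgf20b, both near background at 5.16 and 5.05, on 3.

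In contrast to the ligands, the 16 measured FGF receptors and receptor partners all had means above the bound and 4 were high. il17rd, the FGF antagonist also called Sef, led with 10.08 to 10.42 and a median of 10.26. Of the receptors with kinase domains, fgfr1a ran from 9.52 to 10.08 with a median of 9.86 and fgfr1b from 9.55 to 9.95 with a median of 9.71. Their means were 9.84 ± 0.19 and 9.72 ± 0.16 (SD, n = 6 each). Within arrays the difference was small, 0.12 ± 0.10 (SD, n = 6), and ran from -0.03 to 0.27, with the order held on 5 of 6 arrays. fgfr2 averaged 9.08 ± 0.14, fgfr4 7.97 ± 0.46 and fgfr3 7.67 ± 0.46, the last 2 lowest on replicate 1. The adhesion partner gene flrt2 averaged 8.79 ± 0.16, with a second probe set near background, and flrt3 7.91 ± 0.17. The secreted carrier fgfbp1a averaged 8.65 ± 0.20. The klotho co-receptors of hormone-like FGFs were lower, with kl at 6.67 ± 0.28 and klb at 5.50 ± 0.16 (SD, n = 6 each), and kl had a second probe set near background. The decoy receptors fgfrl1b and fgfrl1a averaged 6.44 ± 0.15 and 6.09 ± 0.48, and at the foot stood fgfbp3 at 5.81, flrt1a at 5.49 and fgfbp2a at 5.47 (SD, n = 6 each). fgfbp2a was thus just over the bound, and its mean over probe sets, 4.86, lay below it. Its duplicate fgfbp2b, which is not on the list, averaged 8.015 and was higher by 2.38 to 2.66 on all 6 arrays.

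**Figure D2:**
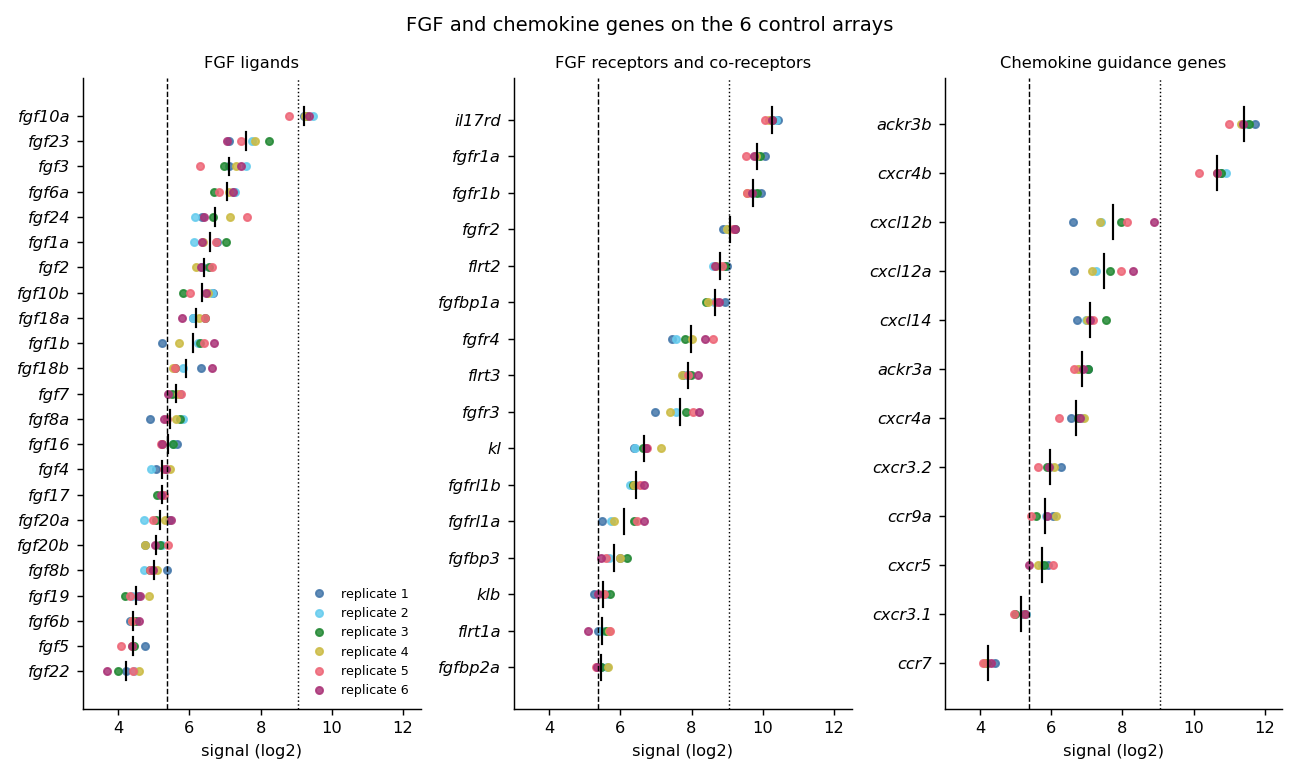
Signal (horizontal axis, log2) of each FGF ligand, FGF receptor or receptor partner and chemokine guidance gene on the 6 control arrays, with a coloured point per replicate, a black bar at the mean, and dashed and dotted lines at the near-background bound of 5.36 and the 90th percentile of 9.06. fgf10a is the one ligand past the dotted line, while il17rd, fgfr1a, fgfr1b, fgfr2, ackr3b and cxcr4b are past it among the receptors.

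FGF and ERK feedback and target genes were above the bound in 19 of 19 and high in 10 of 19, with a median of 9.13. The phosphatases dusp1, dusp4 and dusp2 averaged 11.13 ± 0.11, 10.59 ± 0.15 and 9.80 ± 0.40, and the kinase mapk3 10.38 ± 0.073 (SD, n = 6 each). dusp1 is also an immediate early gene of stress. The ETS factors of the pathway, named after their values were seen, stood at 9.55 ± 0.27 for etv5b, 9.26 ± 0.32 for etv4 and 9.13 ± 0.091 for etv5a, and etv5b was above etv5a on all 6 arrays. The ERK phosphatase dusp6 averaged 9.23 ± 0.22 and the inhibitor spry4 9.68 ± 0.13, against 7.28 ± 0.26 for spry2 and 7.15 ± 0.25 for spry1 (SD, n = 6 each), these too named after their values were seen. spred3 was low at 6.07 ± 0.20, and etv1 at 5.40 ± 0.25 was above the bound on 3 of 6 arrays (SD, n = 6 each).

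Wnt ligands signal through Frizzled receptors, and in the canonical branch beta-catenin then acts with Tcf and Lef factors. Of 23 ligands 20 were above the bound, 87.0% against 80.0% of named genes, and 0 were high, against 10.0%. Their median was 6.86, against 6.85 for named genes. wnt9a ran from 8.14 to 9.02 with a median of 8.78 and wnt9b from 8.13 to 9.20 with a median of 8.54, and these related genes kept their order on 5 of 6 arrays with a mean difference of 0.10. wnt11 and wnt2 averaged 8.30 ± 0.22 and 8.24 ± 0.29, and at the low end wnt2ba and wnt1 averaged 4.73 ± 0.48 and 4.19 ± 0.19 (SD, n = 6 each). Of 20 receptor genes 18 were above the bound and 5 high: kremen1, a Dickkopf receptor, averaged 10.41 ± 0.26, fzd6 10.02 ± 0.25, fzd7a 9.67 ± 0.32 and fzd2 9.63 ± 0.18 (SD, n = 6 each). fzd2 had 4 probe sets and fzd6 3, whose means over probe sets were 8.47 and 8.63. fzd8a averaged 8.73, against 5.27 for fzd8b, and fzd9b 6.87, against 4.04 for fzd9a, so both pairs were split by the bound, in the same order on all 6 arrays.

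Secreted Wnt modulators were above the bound in 19 of 20 and high in 5. The Wnt and BMP inhibitor sostdc1b ran from 10.36 on replicate 5 to 11.44 on replicate 1 with a median of 10.98 and averaged 10.95 ± 0.37. Its duplicate sostdc1a averaged 6.17, lower by 4.39 to 5.15. The pair sfrp1a and sfrp1b was apart by as much, with means of 10.48 ± 0.12 and 5.67 ± 0.21 (SD, n = 6 each). sfrp2 averaged 9.89 ± 0.29, wif1 9.54 ± 0.33 and the agonist rspo1 4.14 ± 0.13 (SD, n = 6 each), the last below the bound on all 6 arrays. The relatives of rspo1 on the list, RSPO2, rspo3 and rspo4, all had means above the bound. The mean of RSPO2 was above that of dkk1b, that of rspo3 lay between dkk1b and dkk1a, and that of rspo4 was above sfrp1b. dkk1b averaged 7.93 and dkk1a 6.37, in that order on all 6, and the inhibitor notum1a exceeded notum1b by 1.16 on average, likewise on all 6. Intracellular components were above the bound in 20 of 20, with 6 high, and ctnnb2, a beta-catenin gene, averaged 10.60 ± 0.28, tcf7l2 10.05 ± 0.23, lef1 9.94 ± 0.13 and tcf7l1a 9.57 ± 0.23 (SD, n = 6 each). lef1, a target and effector of Wnt in the leading domain, ran from 9.82 to 10.18 with a median of 9.90. The feedback gene axin2, named after its value was seen, averaged 8.81 ± 0.13 (SD, n = 6). dvl1a at 6.77 ± 0.18 and gsk3aa at 6.13 ± 0.088 were the lowest members (SD, n = 6 each).

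Notch ligands act on the neighbouring cell, whose cleaved receptor turns on Her and Hey repressors. All 12 measured ligands and fringes were above the bound and 2 were high. dld ran from 9.11 to 9.70 with a median of 9.38, and jag1b from 9.15 to 9.72 with a median of 9.38. The means of 9.41 ± 0.23 and 9.39 ± 0.19 (SD, n = 6 each) kept their order on 4 of 6 arrays and did not differ beyond their spread, and both stood above jag2b at 8.67 ± 0.11, jag1b on all 6 arrays. The deltas dlb, dla and dlc averaged 8.52 ± 0.15, 8.45 ± 0.16 and 8.10 ± 0.12, and the fringes lfng, rfng and mfng, which tune ligand binding, 8.47 ± 0.28, 8.16 ± 0.15 and 6.82 ± 0.14 (SD, n = 6 each). jag2a averaged 7.69 ± 0.17 and dll4, an endothelial ligand, 5.90 ± 0.16 (SD, n = 6 each). jag1a ran from 6.62 to 7.28 with a median of 7.04, below jag1b on all 6 arrays by 2.39 on average.

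Receptors and transducers of Notch were above the bound in 11 of 11 with 2 high: notch1a averaged 9.89 ± 0.15 from the highest of 5 probe sets, with a mean over the 5 of 8.95, and notch3 9.34 ± 0.16. notch2 averaged 8.89 ± 0.090 and notch1b 8.24 ± 0.25, and maml2, a coactivator, was lowest at 6.17 ± 0.15 (SD, n = 6 each). Of the Her and Hey genes 13 of 19 were above the bound, 68.4% against 80.0% of named genes, and 6 were high, 31.6% against 10.0%. her6 ran from 12.08 to 12.30 with a median of 12.12, replicate 1 alone being over 12.16, and its mean of 12.15 ranked 79th of all named genes. her12 averaged 11.76 ± 0.24, hey1 11.42 ± 0.17 and her9 10.94 ± 0.12, in an order that held on all 6 arrays from her6 down to her9 (SD, n = 6 each). helt at 4.41 ± 0.37 and her7, an oscillator gene of the somites, at 4.01 ± 0.26 were near background (SD, n = 6 each).

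BMP and TGF-beta ligands were above the bound in 18 of 25, a share of 72.0% against 80.0% of named genes, with 1 high and a median of 6.09. That one was tgfb1a, from 9.16 to 10.13 with a median of 9.52, whose duplicate tgfb1b averaged 4.97. bmp4 averaged 8.22 ± 0.23, tgfb3 8.10 ± 0.16 and bmp1a 7.59 ± 0.13, and gdf5 and bmp10 were lowest at 4.56 ± 0.22 and 4.23 ± 0.23 (SD, n = 6 each). Their receptors and antagonists were above the bound in 26 of 27 with 3 high, led by acvr2ba at 9.27 ± 0.17, acvr1ba at 9.17 ± 0.12 and tgfbr1b at 9.13 ± 0.099, and grem1a, a BMP antagonist, was lowest at 2.87 ± 0.46 (SD, n = 6 each). In the Hedgehog list 14 of 16 were above the bound, 87.5% against 80.0% of named genes. The co-receptors cdon at 9.91 ± 0.14, gas1a at 9.33 ± 0.20 and boc at 8.96 ± 0.14 led. The ligands shha at 6.30 ± 0.40, ihhb at 4.96 ± 0.15 and shhb at 4.40 ± 0.37 were among the lowest (SD, n = 6 each). Retinoic acid genes were above the bound in 21 of 23, led by the retinaldehyde reductase dhrs3a at 9.79 ± 0.24 and the receptor rarga at 9.04 ± 0.050. The degrading enzyme cyp26b1 was lowest at 5.09 ± 0.12 (SD, n = 6 each). Its relatives cyp26c1 and cyp26a1 were far higher, both with means above the 7.86 of crabp2a. EGF family genes were above the bound in 13 of 13, with hbegfa at 10.12 ± 0.18, erbb3a at 8.56 ± 0.49 and erbb2 at 8.45 ± 0.12, and nrg2b lowest at 5.65 ± 0.16 (SD, n = 6 each). hbegfa was above hbegfb by 2.24 to 3.58 on all 6 arrays.

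Hair cell lineage genes were above the bound in 25 of 27, against 80.0% of named genes, and 6 were high, with a median of 7.58. The calcium-binding genes s100t and pvalb8 led. s100t ran from 11.02 to 11.94 with a median of 11.42, highest on replicate 1, and pvalb8 from 10.84 to 11.09 with a median of 11.03. six2b followed with a mean of 10.87 ± 0.22 and pvalb9 with 9.56 ± 0.19 (SD, n = 6 each). Of the progenitor factors, atoh1a ran from 7.65 to 8.39 with a median of 8.07 and averaged 8.04 ± 0.26, and atoh1b averaged 6.39 ± 0.21, lower on all 6 arrays by 1.52 to 1.73 (SD, n = 6 each). insm1b averaged 9.46, sox1a 9.15, sox21a 8.98, gfi1ab 8.06 and pou4f3, a late differentiation factor, 7.58. Some genes of the mature mechanosensory apparatus overlapped these factors in level: myo6b averaged 7.91, otofb, a synaptic protein of hair cells, 7.60, and myo7aa 7.14. Others had means below all the factors named above. A further factor of the list, sox21b, averaged 6.04 ± 0.23 (SD, n = 6), within the range of these others. The tip link genes pcdh15a and cdh23 averaged 6.10 and 5.56, and slc17a8, the glutamate transporter of hair cells, 6.13 ± 0.51. The channel genes tmc1 and tmc2a averaged 4.75 ± 0.37 and 4.45 ± 0.22, both at or below the bound on all 6 arrays (SD, n = 6 each).

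Claudins, the sealing proteins of tight junctions, were above the bound in 25 of 29, 86.2% against 80.0% of named genes. Of these genes 6 were high, and their median was 6.95, near the 6.85 of named genes. The claudin cldn7b led with 11.94 to 12.13 and a median of 11.99, cldnb followed, and cldn3c and cldn12 averaged 10.17 ± 0.098 and 9.72 ± 0.24, while cldn11a and cldn15lb were near background at 5.21 ± 0.12 and 4.79 ± 0.12 (SD, n = 6 each). cldn7b exceeded its duplicate cldn7a, at 6.14, by 5.81 to 5.95. Other tight junction and polarity genes were above the bound in 29 of 30, led by f11r.1 at 11.17 ± 0.13, tjp3 at 9.85 ± 0.17 and oclna at 9.26 ± 0.099, with crb2b lowest at 5.08 ± 0.32 (SD, n = 6 each). Cadherins and catenins had 17 of 20 above the bound, 85.0% against 80.0% of named genes, and 7 high, epcam and cdh17 among them. cdh1, E-cadherin, ran from 11.14 to 11.58 with a median of 11.34, and cdh2, N-cadherin, from 10.67 to 11.16 with a median of 11.03. jupa, plakoglobin, averaged 11.21 ± 0.13, against 6.19 ± 0.22 for jupb (SD, n = 6 each). cdh10a and cdh4 averaged 4.56 and 5.00, while cdh10b, the duplicate of cdh10a and not on the list, averaged 7.295 and was above cdh10a on all 6 arrays.

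Genes of apical constriction and myosin were above the bound in 25 of 25 with 9 high and a median of 8.93. The regulatory light chain myl12.1 averaged 11.73 ± 0.17, the GTPase rac1a 10.79 ± 0.19, the heavy chain myh9a 9.96 ± 0.12 and the Hippo effector wwtr1 9.90 ± 0.21, and shroom2b was lowest at 6.64 ± 0.26 (SD, n = 6 each). Integrins were above the bound in 23 of 26, 88.5% against 80.0% of named genes, and 4 were high. Of these itgb1b averaged 9.96 ± 0.12, itga6b 9.84 ± 0.13, itgb4 9.80 ± 0.087 and itga3b 9.61 ± 0.12. The leukocyte subunit itgb2 averaged 4.56 ± 0.15 (SD, n = 6 each). itga6b was above itga6a on all 6 arrays by 2.37 to 3.30. Laminins and basement membrane genes were above the bound in 22 of 23, led by sparc at 10.41 ± 0.082, lamc1 at 9.85 ± 0.18 and agrn at 9.47 ± 0.060, with nid2b lowest at 5.05 ± 0.15 (SD, n = 6 each). For agrn the mean over probe sets was 8.75, under the level called high.

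Among transcription factors, the family list of six2b, eya1 and their relatives had 15 of 17 above the bound, 5 high and a median of 8.27. eya1 ran from 11.47 to 12.04 with a median of 11.82, and eya2, six2b and eya4 averaged 10.95 ± 0.22, 10.87 ± 0.22 and 10.02 ± 0.18 (SD, n = 6 each). six7 and six3a, known from the forebrain and eye, were near background at 5.08 ± 0.23 and 4.48 ± 0.32 (SD, n = 6 each). Their relatives six3b, six6a and six6b had means above the bound, at 5.78, 5.925 and 6.40. Sox genes were above the bound in 24 of 25, led by sox2, sox11a at 9.96 ± 0.33, sox4a at 9.31 ± 0.16 and sox4b at 9.16 ± 0.23, and the endodermal sox32 was lowest at 5.16 ± 0.27 (SD, n = 6 each). Dlx, Msx and Pax genes were above the bound in 23 of 25 with 1 high, dlx3b at 9.40 ± 0.17, and dlx4a ran from 5.65 on replicate 1 to 7.87 with a median of 7.38. T-box genes were above the bound in 13 of 21, a share of 61.9% against 80.0% of named genes, with a median of 5.56. Their 1 high member was tbx1 at 9.61 ± 0.23. tbx2b and tbx2a averaged 8.10 ± 0.70 and 7.78 ± 0.58 and were both lowest on replicate 1, and eomesa averaged 4.34 ± 0.30 (SD, n = 6 each). Of the Gata, Tfap2 and Grhl genes 17 of 19 were above the bound, 89.5% against 80.0% of named genes. The highest was tfap2a, a factor of ectoderm and neural crest, at 11.43 to 11.82 and a median of 11.65. tfap2c and klf17 averaged 9.86 ± 0.32 and 9.72 ± 0.23 (SD, n = 6 each).

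Hox genes record position along the body axis. Of 43 measured genes 42 were above the bound, 97.7% against 80.0% of named genes, and 9 were high, 20.9% against 10.0%. hoxb8a ran from 10.55 to 10.85 with a median of 10.64, followed by hoxb9a at 10.19 ± 0.13, hoxb4a at 9.84 ± 0.15 and hoxb5b at 9.64 ± 0.33, while hoxa1a at 5.41 ± 0.17 and hoxb13a at 4.58 ± 0.31 were the lowest (SD, n = 6 each). The list mean ran from 7.24 on replicate 1 to 8.03 on replicate 6, and 30 of the 43 genes were lowest on replicate 1, against 22.5% of named genes. The range of the list mean was 0.794 on all 6 arrays, 0.350 without replicate 1 and 0.651 without replicate 6. hoxa11a, the most variable member, had 4.86 on replicate 1 and 6.38 to 7.10 on the others.

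Of 40 listed ribosomal protein genes 40 were above the bound and 36 high, with a median of 12.46. Another ribosomal protein gene, rpl26, which is not on the list, headed all named genes at 13.35 to 13.42, a median of 13.37 and a mean of 13.38 ± 0.024. rpl17 at 8.03 ± 0.030 and rpl10 at 6.85 ± 0.081 were the lowest of the list (SD, n = 6 each). Passing over a clone name, the 12 highest means also held rps14, vangl2, tmsb4x, rps7, actc1b, rps26, rpl28, rps29, rps26l, rpl24 and rpl7a, from 13.25 down to 12.97. vangl2 is a planar cell polarity gene and tmsb4x encodes an actin-binding peptide. Cyclins and cell cycle kinases were above the bound in 33 of 34 and high in 5, a share of 14.7% against 10.0% of named genes, led by pcna at 11.57 ± 0.059, cdkn1bb at 10.95 ± 0.18 and ccnd1 at 10.35 ± 0.088, with ccna1, a cyclin of the germ line, at 3.81 ± 0.17 (SD, n = 6 each). MYC and immediate early genes were above the bound in 28 of 29 with 15 high and a median of 9.11. fosab ran from 12.38 to 12.53 with a median of 12.45, egr1 from 11.73 to 12.27 with a median of 11.97, and junba averaged 11.92 ± 0.15 (SD, n = 6). Genes of this kind are known to be induced by tissue handling, and the part of handling in these levels was not tested.

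**Figure D3:**
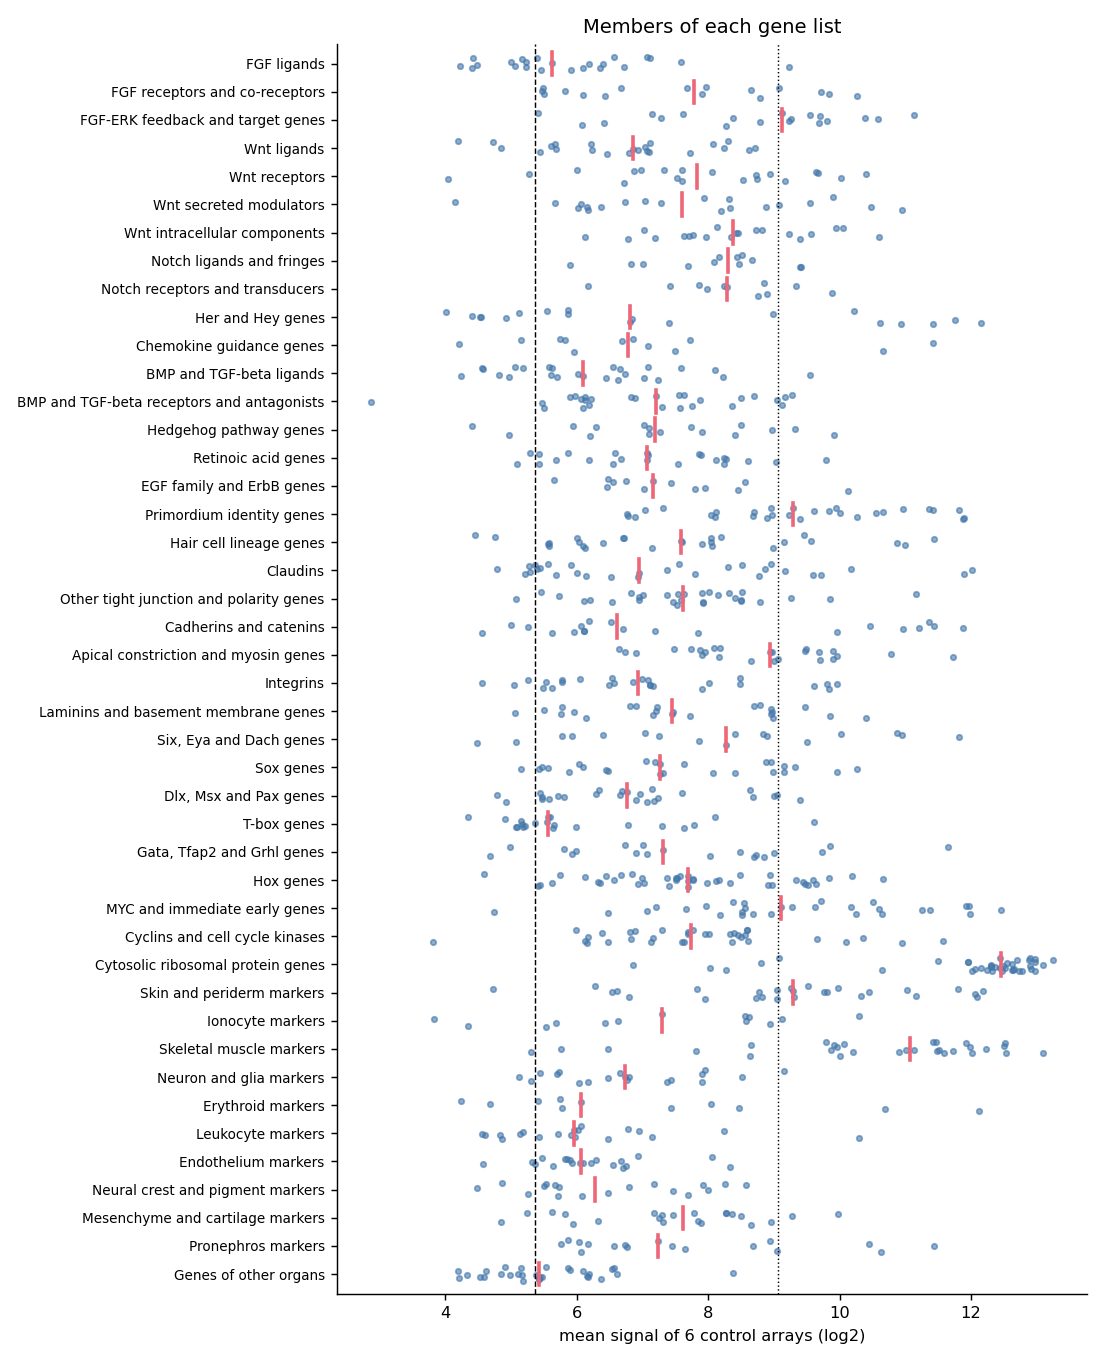
Mean signal over the 6 control arrays (horizontal axis, log2) of every measured member of the 44 gene lists, a blue point per gene with a red bar at the list median, and dashed and dotted lines at 5.36 and 9.06. The ribosomal protein and skeletal muscle lists lie furthest right, with medians of 12.46 and 11.07, while FGF ligands, T-box genes and genes of other organs have medians of 5.63, 5.56 and 5.43, close to the dashed line.

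The remaining cell type lists covered cells that could lie beside the primordium. The shares above the bound in several of them were near the 80.0% of all named genes, and such a share is no sign that the cells were there. Ionocyte markers were above the bound in 11 of 13 with 2 high, carbonic anhydrase ca2 at 10.29 ± 0.45 and the proton pump subunit atp6v0a1a at 9.12 ± 0.13, while ca15a was near background at 3.83 ± 0.26 (SD, n = 6 each). Pronephros markers were above the bound in 17 of 17 with 3 high: cdh17, slc12a3 at 10.63 ± 0.59 and slc12a1 at 10.45 ± 0.24, the last 2 being salt transporters of the kidney tubule (SD, n = 6 each). Mesenchyme and cartilage markers were above the bound in 20 of 22 with 2 high, col1a1a at 9.98 ± 0.55 and dcn at 9.27 ± 0.27, and matn1, a cartilage gene, was lowest at 4.85 ± 0.18 (SD, n = 6 each). Neuron and glia markers were above the bound in 17 of 19 with elavl3, an RNA-binding protein of neurons, running from 7.78 on replicate 1 to 10.29 on replicate 5 with a median of 9.13. Neural crest and pigment markers had 15 of 18 above the bound (83.3%) and endothelium markers 17 of 20 (85.0%), with 0 high in either, and gch2 at 8.58 ± 0.79 and egfl7 at 8.33 ± 0.20 led them (SD, n = 6 each). The leukocyte and erythroid shares were 68.4% and 81.8%. The list of genes of other organs, which served as a further check of the bound, had 17 of 30 above it, a share of 56.7%. Its median was 5.43 and its highest member, fabp2 of the intestine, was at 8.38. Whether the members above the bound were expressed by other cells in the samples was not tested. A place above the bound does not by itself show that a gene was expressed.

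Over all named genes the median SD between the 6 arrays was 0.183, with 0.222 for genes near background, 0.173 above it and 0.142 among high genes. An SD over 1 was seen in 28 genes above the bound, and the 12 with the largest SD, clone names passed over, were cabp1a, fxyd11, atp1b1b, kcnj1a.3, otx2b, kcnj1a.5, foxi3b, rgs5b, scinla, hbbe3, ptgdsb.1 and ankrd1b, each lowest on replicate 1. fxyd11 and atp1b1b, a modulator and a subunit of the sodium pump, ran from 8.26 to 12.47 and from 8.33 to 12.42, with medians of 11.88 and 11.54. foxi3b, the factor that specifies ionocytes, ran from 6.73 on replicate 1 to 10.31 on replicate 5 with a median of 9.12. cabp1a, a calcium-binding protein gene, ran from 6.22 to 10.71 with a median of 9.12. Apart from hbbe3, ptgdsb.1 and ankrd1b, whose highest values were on replicate 6, the highest value of these genes was on replicate 5.

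The low value on replicate 1 was also seen in list means. Of the 44 lists, the ionocyte list had the widest range, from 6.49 on replicate 1 to 7.71 on replicate 5, a span of 1.22 that came to 0.662 without replicate 1. Skeletal muscle ran from 9.95 on replicate 1 to 10.79 on replicate 6, a span of 0.842. That span came to 0.624 without replicate 1 and 0.674 without replicate 6. Of the 30 muscle members 28 were lowest on replicate 1, against 22.5% of named genes. Of the 30 members 0 were higher on replicate 1 than on replicate 5, against 51.4% of named genes. Skin and periderm ran from 8.75 on replicate 1 to 9.39, a span of 0.640 that came to 0.166 without replicate 1. The mesenchyme list spanned 0.897, with 0.528 left without replicate 1 and 0.593 without replicate 6. Spans with an array left out were not planned, and leaving out an array can only keep or narrow a span. The primordium identity list was narrower: its mean ran from 9.23 on replicate 5 to 9.45 on replicate 3. Of its 29 members 16 were lowest on replicate 5, against 22.0% of named genes. The span of 0.221 came to 0.0890 without that array. Hair cell lineage genes ran from 7.35 to 7.78, highest on replicate 1, where 16 of 27 members had their highest value, against 24.5% of named genes. In the cell cycle and ribosomal lists 30 of 34 and 38 of 40 members were higher on replicate 1 than on replicate 5. The mean over all named genes spanned 6.85 to 6.90.

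**Figure D4:**
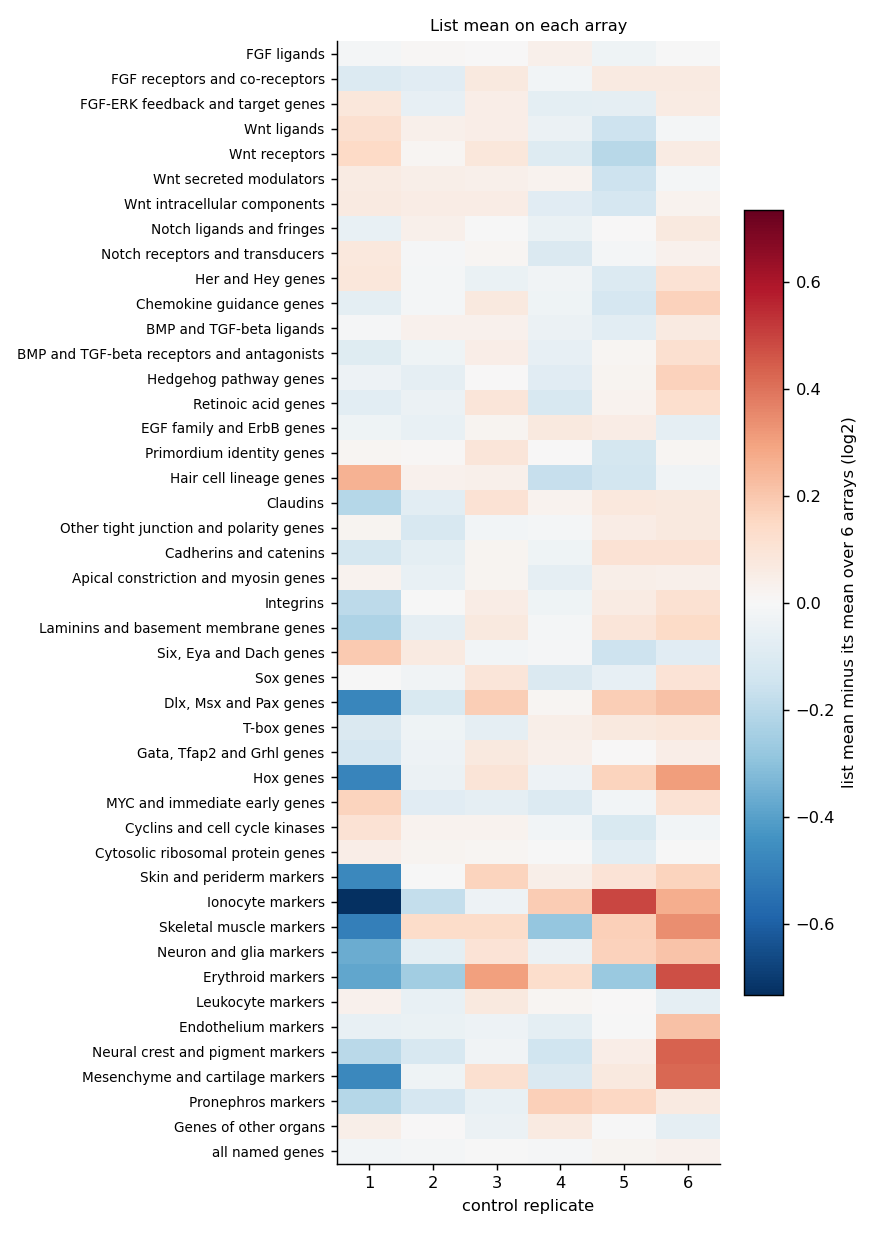
Deviation of each list's mean on an array from its mean over the 6 control arrays (colour scale, log2), with lists down the page and replicates 1 to 6 across. Blue is below and red above the list's mean: replicate 1 is blue for the ionocyte, muscle, Hox, skin and mesenchyme lists and red for hair cell genes, and replicate 5 is red for ionocytes and blue for the primordium list.

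The zebrafish genome holds many gene duplicates kept from an ancient duplication in fishes, whose symbols differ in a final a or b. Pairs were formed by symbol alone, so the counts also hold genes that are separate in all vertebrates, such as wnt9a and wnt9b or pdgfra and pdgfrb. Among 2477 pairs with both members measured, 1802 (72.7%) had both above the bound, 526 (21.2%) were split by it and 149 (6.02%) had both near background. The order within a pair was the same on all 6 arrays in 1990 pairs, and the median difference was 1.03, with 552 pairs apart by over 2 and 657 by under 0.5. The higher member of a split pair was a in 301 and b in 225, and in 34 of the split pairs it was high. Of 165 pairs on the lists 31 were split, a share of 18.8%, near the 21.2% of all pairs, and 135 kept the same order on all 6 arrays. The split ones include fgf6, fgf8, wnt2b, wnt6, fzd8, fzd9, bmp7, gdf6, tgfb1, grem1, ihh, shh, tbx3, six3 and fosl1.

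The 8 widest split pairs with a constant order had a lower member near background, so the sizes of their gaps rest on where that probe set bottoms out and their order by size carries no meaning. ndufa9a, a respiratory complex subunit, averaged 10.27 ± 0.29, against 2.95 ± 0.56 for ndufa9b, and fosl1a, an AP-1 factor, 11.98 ± 0.13, against 4.74 ± 0.20 for fosl1b (SD, n = 6 each). The higher members of the others averaged 10.67 for sumo2b, 11.41 for cox5ba, 10.92 for tnnc1b, 10.98 for cd81a, 10.48 for tspan3a and 9.06 for fabp4a, and sumo2a, cox5bb, tnnc1a, cd81b, tspan3b and fabp4b were all near background. cox5ba had a second probe set, and its mean over both was 9.57. Whether a member at such a low signal is silent or has a probe set that binds poorly cannot be told from these values.

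**Figure D5:**
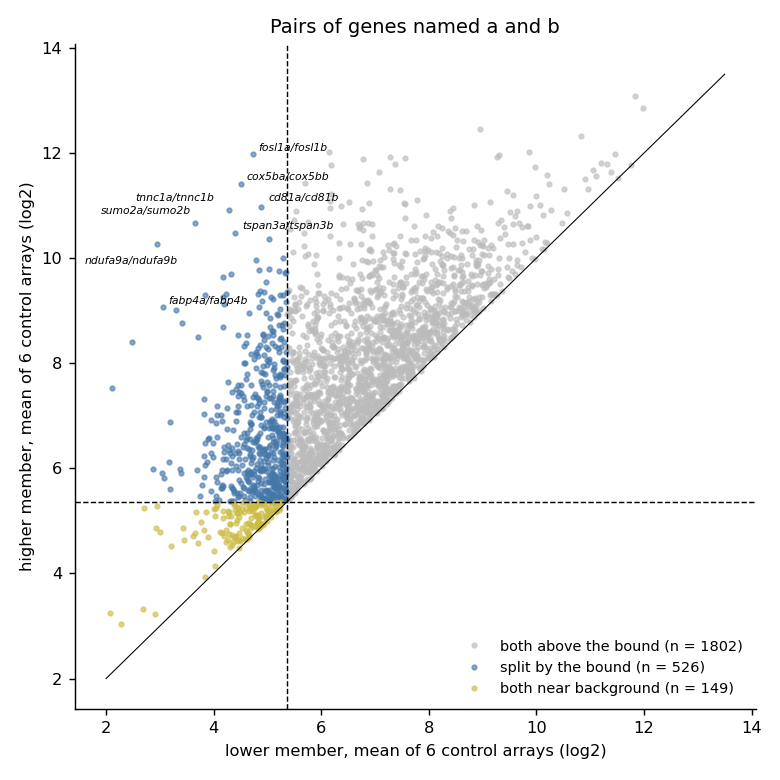
Mean signal of the higher (vertical axis, log2) and lower (horizontal axis, log2) member of each of 2477 pairs of genes named a and b on the 6 control arrays, with the bound of 5.36 dashed on both axes, blue where it splits a pair, grey where both are above it, yellow where both are near background, and the 8 named pairs written beside their points. The grey points number 1802, the blue ones 526 and the yellow ones 149.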

How the data were processed

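RNA signals were read from 6 control arrays of an Affymetrix zebrafish gene array. The authors deposited log2 values, 1 per probe set and array, for which the submitters' processing notes name RMA and Affymetrix Power Tools without a version. The sources used here state no build, annotation or filter. Values were used as deposited. Of 75212 probe sets, 20806 had 1 gene symbol in the annotation table of the array, 855 several and 53551 none, and 14291 shared all values with another. Each of 19260 genes was read from its highest probe set by control mean. Of 1029 list symbols 940 were found, 11 through an older symbol (RefSeq, GRCz12tu) and 8 by letter case.

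Means, SDs, ranks and counts were computed with Python 3.11.15, pandas 2.3.3 and numpy 2.4.6 and tested on simulated data. No test between groups was run. Precision is limited by the number of arrays. The members and lists were chosen with earlier results of these data known. Named genes were the 12 highest means and the 12 largest SDs above the bound, passing over clone names, the 4 highest, 2 lowest and most variable member of each pathway or family list, all members of the FGF ligand, FGF receptor, chemokine, Notch ligand and primordium lists, the 8 widest split pairs, and the 3 highest and the lowest of each other cell type list, 342 in all. Duplicate partners of these genes and the other genes given with values were chosen after their values were seen. The pathway and family lists were FGF ligands, FGF receptors and co-receptors, FGF and ERK targets, 4 Wnt lists, 3 Notch lists, chemokine guidance, 2 BMP and TGF-beta lists, Hedgehog, retinoic acid, EGF, primordium identity, hair cell lineage, 6 adhesion and matrix lists, 6 transcription factor lists, MYC and immediate early genes, cell cycle and ribosomal proteins. Alternatives were leaving out arrays, rescaling, averaging probe sets and moving the bound.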

Additional observations from a re-analysis of the deposited data

Results flagged for a closer look

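In a group of 6 arrays, a value stood apart when its gap to the nearest other value, as a share of the whole range, was above Dixon's 95% critical value. Chance gives such a gap in about 1 group in 20. It was met by 29 of the 342 genes picked for description (8.48%), by 3 of 44 list means and by 1357 of all 19260 named genes (7.05%). The 342 were picked in part for a large spread between arrays, which may have raised their share and the tally per replicate. Replicate 1 was low for krt91 (10.86), krt4 (11.78), cyt1l (11.70), fxyd11 (8.26), atp1b1b (8.33), ptgdsb.1 (5.57), dlx4a (5.65), hoxa11a (4.86), kcnj1a.5 (3.50) and the mean of the skin and periderm list (8.75), 3 of these genes being keratins. It was high for her6 (12.30), epcam (12.02), f11r.1 (11.42), dusp1 (11.35), sox11a (10.60) and sox4b (9.59). Replicate 5 was low for rac1a (10.41), sumo2b (10.39), cxcr4b (10.14), hmx2 (9.47), fgf10a (8.80), rps9 (8.82), ccna2 (8.03), rpl10 (6.70) and the mean of the secreted Wnt modulators (7.51), and high for grhl2b (9.35). Replicate 2 was low for lyz, with 8.94 against 10.39 to 10.76 on the other arrays. Replicate 6 was high for bmp15 (5.83), shhb (5.10) and the mean of the endothelium list (6.44) and low for ccna1 (3.48), and replicate 4 was high for myl7 (5.35). The last 4 genes had means near background.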

How the results depend on the processing

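The number of genes near background rested on the bound: it was 3844 as reported, 5860 with the bound at the median of all probe sets (5.91), 527 at the median of the chemosensory genes and 7604 at their 99th percentile (6.36), and at the chemosensory median 25 pairs were split by the bound, against 526 as reported. The alternative's construction gives the cause, since these settings move the bound itself. With each replicate left out in turn, genes near background came to 3660 to 4013, list members above the bound to 830 to 842 (839 as reported), split pairs to 489 to 552 and the median SD to 0.168 to 0.187 (0.183 as reported). Equal medians, quantile normalization and means over probe sets gave 3847, 3854 and 3958 genes near background, and a demand that every array lie above the bound gave 4995. Leaving out replicates 1 and 5 together, chosen after seeing the data, gave 3947 genes, 550 split pairs and a median SD of 0.152, and pairs whose stem ends in a digit, also chosen later, gave 374 split of 1791. With means over probe sets 26 of the 342 named levels moved by more than 1 SD, among them vangl2 to 10.70, flrt2 to 6.74, fzd6 to 8.63, fgf7 to 5.19 and kl to 5.53. The counts above the bound changed by over 1.5 times in 16 list settings, for example FGF ligands to 7 and T-box genes to 6 at the 99th percentile. No paired analysis was possible because 1 group was described and its values came from no test.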

Other observations

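Of the probe sets without a gene symbol, 28116 (52.5%) lay above the bound, 3766 were in the range called high and the strongest reached 13.78, above the 13.38 of rpl26, the strongest named gene. Their median was 5.49. The planar polarity gene vangl2, ranked 4 among named genes at 13.17, had a second probe set at 8.23. Genes of other organs had a median near the bound, with 17 of 30 above it. The intestinal gene fabp2 averaged 8.38 ± 0.53 (SD, n = 6), lowest on replicate 1 at 7.40 and highest on replicate 5 at 8.94.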
